A study of Mus musculus with 6 samples.

Results

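The mitochondrial genome of the mouse is a small circle of DNA that carries 13 protein-coding genes, 2 ribosomal RNA genes and 22 tRNA genes. All 37 are rows of the expression files whose symbol starts with mt-, out of 55335 genes in each file. They were followed in mouse 4-cell embryos, in 3 control libraries (Con) and 3 libraries of embryos exposed to DRB, a nucleoside analogue that blocks elongation by RNA polymerase II through inhibition of CDK9. DRB was given at 20 µM from 6 h after fertilization for 20 h and washed out, and the embryos grew for 26 h more before collection. The sources used here do not give the strain, the embryos per library, or the culture and vehicle of the Con embryos. Values are listed in the order of replicates 1 to 3 throughout. The libraries were made by Smart-Seq2, which primes cDNA at poly(A) with oligo-dT and does not mark the strand of origin, and the deposited values are FPKM (fragments per kilobase of transcript, scaled to the number of fragments in the library).

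Mitochondrial DNA is not read by RNA polymerase II. A dedicated polymerase, POLRMT, works with the factors TFAM, TFB2M and TEFM and copies each strand into a long transcript, from which the tRNAs that sit between most genes are cut out so that the mRNAs and rRNAs are released. Most of the mRNAs then receive short poly(A) tails. All mRNA products are subunits of the respiratory chain or of ATP synthase, while the rRNAs and tRNAs serve the translation system inside the organelle. In the cleaving mouse embryo the organelles are inherited from the egg.

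The 37 genes lie next to one another: within the 15422 bases from the first to the last of them, only 57 bases belong to no gene. On the reference (+) strand lie 12 mRNA genes, both rRNA genes and 14 tRNA genes, and on the other (−) strand lie mt-Nd6 and 8 tRNA genes. Reads from overlapping or opposite genes cannot be told apart here, because the method does not keep the strand. 5 tRNA genes are printed here because the presence of a tRNA value went with gene length in each library. The anticodon is in capitals, 5′ to 3′ on the gene's own strand. These sequences are from the GENCODE M21 transcripts (GRCm38, the assembly also called mm10). Leucine tRNA mt-Tl1 is at chrM:2676-2750 (+), glutamine tRNA mt-Tq at chrM:3772-3842 (−), aspartate tRNA mt-Td at chrM:6942-7011 (+), serine tRNA mt-Ts1 at chrM:6870-6938 (−) and phenylalanine tRNA mt-Tf at chrM:1-68 (+).
mt-Tl1: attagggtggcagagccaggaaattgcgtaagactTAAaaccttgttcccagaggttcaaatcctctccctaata
mt-Tq: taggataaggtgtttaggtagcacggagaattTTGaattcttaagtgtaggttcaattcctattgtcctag
mt-Td: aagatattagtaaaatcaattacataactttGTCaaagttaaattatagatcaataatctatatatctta
mt-Ts1: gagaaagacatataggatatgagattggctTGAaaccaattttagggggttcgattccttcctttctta
mt-Tf: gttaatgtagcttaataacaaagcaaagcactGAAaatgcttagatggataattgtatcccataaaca

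Neighbouring mRNAs also share bases. The coding sequences of mt-Atp8 (chrM:7766-7969, +) and mt-Atp6 (chrM:7927-8607, +), both parts of the membrane sector of ATP synthase, overlap by 43 bases and are carried on 1 mature mRNA, and those of mt-Nd4l (chrM:9877-10173, +) and mt-Nd4 (chrM:10167-11544, +), both complex I subunits, overlap by 7. The genes mt-Atp8 and mt-Nd4l are shown with the shared bases in capitals, since each is the 5′ partner of a pair whose FPKM are compared further on.
mt-Atp8: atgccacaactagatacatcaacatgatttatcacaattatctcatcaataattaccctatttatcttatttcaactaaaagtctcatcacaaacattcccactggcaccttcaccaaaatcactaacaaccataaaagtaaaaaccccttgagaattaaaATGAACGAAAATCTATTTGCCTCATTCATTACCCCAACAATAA
mt-Nd4l: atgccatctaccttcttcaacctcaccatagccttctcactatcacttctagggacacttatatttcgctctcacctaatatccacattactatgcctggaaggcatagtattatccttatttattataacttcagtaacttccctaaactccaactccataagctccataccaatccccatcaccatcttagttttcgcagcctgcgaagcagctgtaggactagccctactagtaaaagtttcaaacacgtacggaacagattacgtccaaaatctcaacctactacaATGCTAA

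The estimated depth was 21800000 to 25300000 fragments per library. Con replicate 1 stood apart in having 22102 genes above 0, against 18485 to 19895 in the others. All 11 markers of the cleavage-stage embryo reached 1 FPKM, and their summed FPKM, most of it from Dppa3, ran from 18249 to 25018 in Con and from 14963 to 26698 in DRB. None of the 11 was called by limma and 8 had a negative log2 fold change (median −0.12). In 3 of them, Obox6, Dppa2 and Padi6, every DRB library was below every Con library, at an unadjusted limma p below 0.05. Obox6 had 1366 ± 452 FPKM in Con and 689 ± 267 in DRB (SD). In Khdc3 every DRB library was above every Con library (8.94 ± 0.33 and 12.9 ± 3.73). Of all 11893 genes tested, 1654 were wholly lower in DRB in this way and 1171 wholly higher. At an unadjusted limma p below 0.05, 10.5% of them were lower. Of 10 cumulus cell markers 2 reached 1 FPKM, Gja1 and Amhr2, and 4 were listed at 0 in all libraries. The summed FPKM of the 10 was 213 to 387 in Con and 144 to 276 in DRB. Most of it was from Gja1 (195 to 364 in Con and 121 to 256 in DRB). Of 9 sperm markers 3 reached 1 FPKM and 2 were listed at 0 in all (sums of 12.7 to 22.7 in Con and 12.5 to 24.2 in DRB), and of 6 blood cell markers 4 reached it (74.3 to 114 and 47.0 to 87.3). Other cells bring mitochondria of their own, and the part of these RNAs and of the embryo markers in the values that follow was not tested.

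The mitochondrial genes took 12.2%, 18.7% and 19.96% of the total FPKM in the Con libraries and 25.7%, 23.9% and 26.4% in the DRB libraries. Every DRB library was above every Con library, and Con replicate 1 was the lowest of the 6. The mean share was 17.0% ± 4.15 in Con and 25.3% ± 1.25 in DRB (SD, n = 3 per group), a difference of 8.37 percentage points. The exact two-sided permutation test gave p = 0.1, the smallest that 3 against 3 libraries allows, and 0.35 after Benjamini-Hochberg adjustment over the 7 whole-library measures. Without Con replicate 1 the difference was 5.997 percentage points.

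The 13 mRNAs made up most of this share. They held 11.2%, 16.7% and 16.8% of the total FPKM in the Con libraries and 20.3%, 21.2% and 22.2% in the DRB libraries. Again the groups did not overlap, at 14.9% ± 3.21 against 21.2% ± 0.998 (SD, n = 3 per group; exact permutation p = 0.1, adjusted 0.35 over the 7 measures). In bulk embryos, more mitochondrial RNA and less nuclear RNA both give a higher share, and they cannot be told apart from FPKM. Set against the FPKM of all genes outside the mitochondrial genome, the mRNAs were 18.1% ± 4.63 in Con and 28.5% ± 1.55 in DRB. That total includes nuclear copies of mitochondrial genes, described further on, which may share reads with these mRNAs. The rRNAs held 1.01%, 1.01% and 1.84% in Con and 2.20%, 1.79% and 1.40% in DRB, ranges that overlapped (exact permutation p = 0.3, adjusted 0.42). The tRNAs held 0.028%, 0.985% and 1.35% in Con and 3.25%, 0.909% and 2.71% in DRB, which also overlapped (exact permutation p = 0.3, adjusted 0.42).

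**Figure D1:**
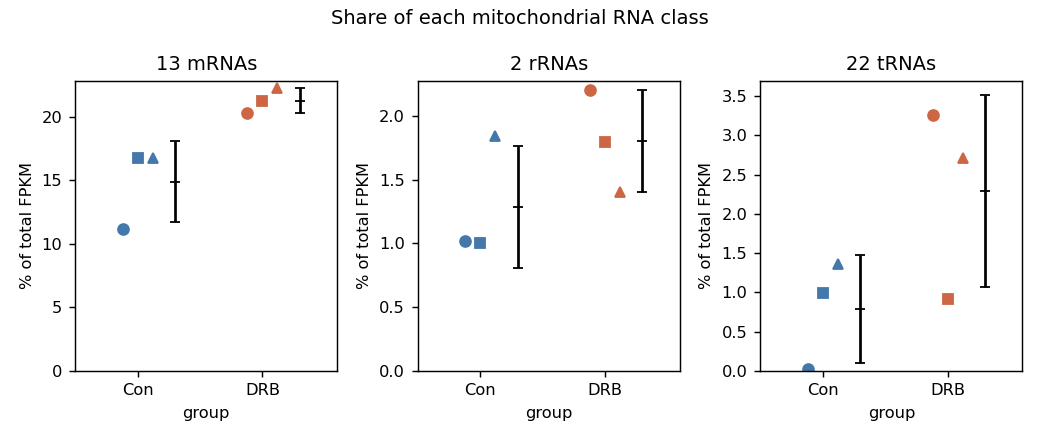
Percent of each library's total FPKM held by the 13 mRNAs, the 2 rRNAs and the 22 tRNAs of the mitochondrial genome, on separate vertical axes that start at 0. Points are libraries (circle, square and triangle for replicates 1, 2 and 3), bars are the mean ± SD of 3 libraries, and of the 3 classes the mRNAs alone have every DRB library (20.3% to 22.2%) above every Con library (11.2% to 16.8%).

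The proportion of rRNA to mRNA did not differ beyond the spread. The log2 ratio of summed rRNA to summed mRNA FPKM was −3.46, −4.06 and −3.19 in Con and −3.20, −3.57 and −3.99 in DRB. The means of −3.57 and −3.58 differed by −0.02, less than the SD of 0.44 in Con and 0.39 in DRB (exact permutation p = 0.9, adjusted 0.9). For mt-Nd6, the complex I subunit whose gene is the single mRNA gene on the − strand, the log2 ratio to the 12 mRNAs of the + strand was −7.57, −7.67 and −7.44 in Con and −7.09, −7.93 and −7.97 in DRB. DRB replicate 1 was above all Con libraries and the other DRB libraries were below them, so the mean difference of −0.10 lay within the spread (exact permutation p = 0.8, adjusted 0.9). The mRNA gene mt-Nd5 runs into mt-Nd6 by 14 bases from the opposite strand, and reads there cannot be assigned to either. With no strand kept, reads along the rest of mt-Nd6 cannot be told apart from RNA that runs through it on the + strand. The ratio is thus not a clean measure of − strand mRNA, and how well oligo-dT captured mt-Nd6 was not tested.

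Each gene was then compared with limma on log2(FPKM + 1), with p-values adjusted by Benjamini and Hochberg's method over all 11893 genes tested and a threshold of 0.05. Of those genes 2.48% passed in either direction, 1.53% higher and 0.95% lower in DRB (182 and 113 genes). The counts were 187 and 72 when each library was scaled to its nuclear total, nuclear copies of mitochondrial genes included. With median-of-ratios scaling they were 223 and 84. None of the 13 mRNAs passed, although all 13 had a positive log2 fold change (DRB over Con), with a median of 0.45 and a range of 0.08 to 0.73. Over all genes tested the median was −0.09 and 44.0% were positive. At an unadjusted limma p below 0.05 stood 2 of the 13, mt-Cytb and mt-Co2, where 18.1% of all genes did (7.53% higher, 10.5% lower). In 6 of the 13 every DRB library was above every Con library, against 9.85% of all genes tested (23.8% counting either direction). The 13 mRNAs are cut from shared transcripts and are not independent of each other.

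As deposited, the most abundant mRNA on average was mt-Cytb (chrM:14145-15288, +), the mitochondrial subunit of complex III. Its FPKM was 28857, 48423 and 47343 in the Con libraries and 57681, 68163 and 76526 in the DRB libraries. The groups did not overlap and Con replicate 1 was far below the other 5 libraries. The log2 fold change was 0.73 with a standard error of 0.33 (limma p 0.0467, adjusted p 0.266).

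Both ATP synthase genes followed. The FPKM of mt-Atp6, the subunit that forms the proton channel, was 30300, 52415 and 44765 in Con and 50775, 62849 and 69187 in DRB. Con replicate 2 was above DRB replicate 1, so the groups overlapped, and the log2 fold change was 0.54 ± 0.32 (SE, limma adjusted p 0.413). That of mt-Atp8, a short accessory subunit, was 19571, 37945 and 30639 in Con and 40141, 47475 and 51999 in DRB. These did not overlap, and limma gave 0.71 ± 0.33 on the log2 scale (SE, adjusted p 0.286). Although they share an mRNA, mt-Atp8 had less FPKM than mt-Atp6 as deposited. Its level was 0.646, 0.724 and 0.684 of that of mt-Atp6 in Con and 0.791, 0.755 and 0.752 in DRB. These ranges did not overlap and were compared without a test.

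Complex IV, cytochrome c oxidase, has its 3 core subunits encoded here. The FPKM of mt-Co2 (chrM:7013-7696, +), which accepts electrons from cytochrome c, was 8520, 9530 and 8743 in Con and 11686, 14483 and 16832 in DRB. All 3 Con libraries lay close together and below all DRB libraries, with a log2 fold change of 0.67 ± 0.27 (SE, limma p 0.0305, adjusted p 0.220). Over 17 other settings its adjusted p ran from 0.0584 to 0.566. For mt-Co1 (chrM:5328-6872, +), the catalytic subunit, the FPKM was 4978, 5866 and 6503 in Con and 4994, 7007 and 8478 in DRB. For mt-Co3 (chrM:8607-9390, +) it was 5190, 5232 and 5125 in Con and 5077, 8319 and 8504 in DRB. In both genes DRB replicate 1 lay among or below the Con libraries, and the log2 fold changes were 0.21 and 0.46 (limma adjusted p 0.756 and 0.435).

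Complex I, the entry point for electrons from NADH, takes 7 subunits from this genome. The highest was mt-Nd1 (chrM:2751-3707, +), which had the smallest difference of the 13 mRNAs. Its FPKM was 14731, 17904 and 18039 in Con and 15417, 17250 and 21196 in DRB. The groups were interleaved, and the log2 fold change was 0.08 ± 0.28 (SE, limma adjusted p 0.915). It was below 0 in 3 of the 17 other settings, at −0.13 when a GC trend was removed from each library. For mt-Nd4 the FPKM was 6356, 7204 and 7893 in Con and 8855, 9559 and 11265 in DRB, which did not overlap (log2 fold change 0.47, limma adjusted p 0.378). For mt-Nd2 (chrM:3914-4951, +) it was 3801, 6160 and 6572 in Con and 7599, 6659 and 6656 in DRB, where the groups were only just apart (0.38, limma adjusted p 0.539). The largest subunit gene, mt-Nd5 (chrM:11742-13565, +), had 1582, 1433 and 2000 FPKM in Con and 2128, 2346 and 2197 in DRB, also apart (0.42, limma adjusted p 0.400).

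The remaining 3 complex I genes overlapped between the groups. In mt-Nd3 (chrM:9459-9806, +) the FPKM was 3930, 2850 and 3070 in Con and 3161, 5829 and 4211 in DRB (log2 fold change 0.39, limma adjusted p 0.532). In mt-Nd4l it was 1390, 808 and 1018 in Con and 580, 1827 and 1660 in DRB, with DRB replicate 1 the lowest of the 6 and the largest standard error of the 13 (0.21 ± 0.41, limma adjusted p 0.851). In mt-Nd6 (chrM:13552-14070, −) it was 680, 960 and 1044 in Con and 1529, 1030 and 1115 in DRB (0.45, limma adjusted p 0.421). Of these, the log2 fold change of mt-Nd4l was below 0 when DRB replicate 2 or DRB replicate 3 was left out, at −0.09 and −0.02.

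**Figure D2:**
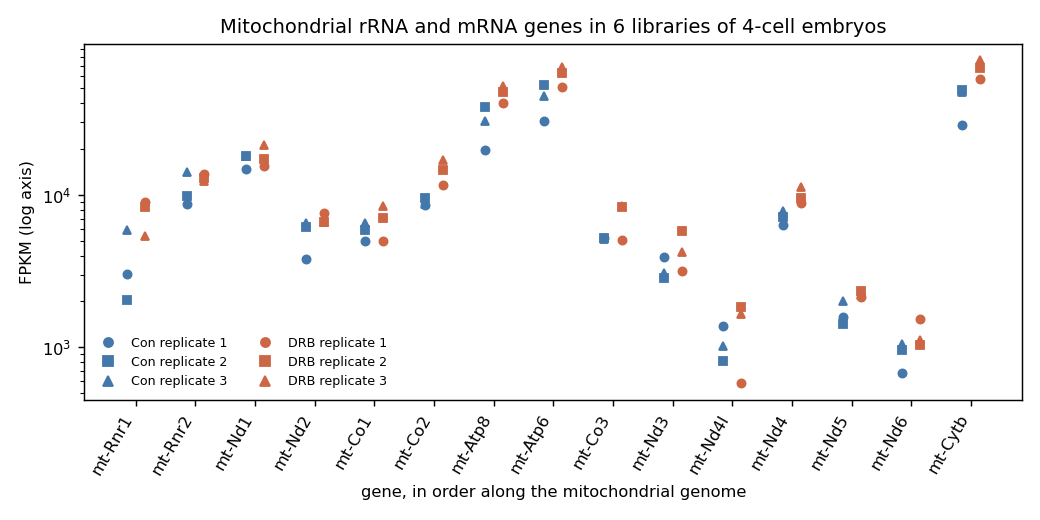
FPKM (log axis) of the 2 rRNA and 13 mRNA genes in each library, in order along the mitochondrial genome, with Con in blue and DRB in red and a symbol for each replicate. The highest gene as deposited, mt-Cytb, reaches 76526 FPKM in DRB replicate 3. In 6 mRNAs (mt-Nd2, mt-Co2, mt-Atp8, mt-Nd4, mt-Nd5 and mt-Cytb) all 3 DRB points lie above all 3 Con points.

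The levels per length differed widely within the genome. The highest mRNA was 44.6 to 99.4 times the lowest in the same library. By the mean of the 6 libraries mt-Cytb (54499 FPKM), mt-Atp6 (51715) and mt-Atp8 (37962) led, mt-Nd1 (17423), mt-Co2 (11632) and mt-Nd4 (8522) came next, mt-Co1 (6304), mt-Co3 (6241), mt-Nd2 (6241) and mt-Nd3 (3842) followed, and mt-Nd5 (1948), mt-Nd4l (1214) and mt-Nd6 (1060) were lowest. This order is that of the deposited values, and how well oligo-dT captured each mRNA was not tested. The shortest of these genes, mt-Atp8, has 204 bases. The depth estimate took 180, 180 and 160 bases off each length in Con and 160 in each DRB library. How far the level, rank and share of mt-Atp8 rest on such a length correction was not tested. Neighbours in the order had overlapping ranges over the libraries of both groups, except that mt-Nd3 lay wholly above mt-Nd5. Compared within each library, the order from mt-Atp6 through mt-Atp8, mt-Nd1, mt-Co2 and mt-Nd4 to mt-Co1 held in all 6. The order from mt-Nd3 through mt-Nd5 to mt-Nd4l held in all 6 as well. Other neighbours kept their order in 2 to 5 libraries. Depth does not limit these values: an estimated 5300 fragments lay behind the lowest of them that could be estimated, mt-Nd6 in Con replicate 1, and 1910000 behind mt-Cytb in DRB replicate 3. The mRNA genes hold 31.9% to 41.1% G and C, against a median of 49.2% in the nuclear genes tested. With the GC trend removed from each library the median log2 fold change of the 13 was 0.20 and not 0.45.

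Within the mRNA pool, shares do not depend on the scaling against nuclear genes. The share of mt-Nd1 among the 13 was 11.3%, 9.10% and 9.87% in Con and 7.35%, 6.82% and 7.57% in DRB. That of mt-Cytb was 22.2%, 24.6% and 25.9% in Con and 27.5%, 27.0% and 27.3% in DRB. Every DRB library was thus below every Con library for mt-Nd1 (10.1% ± 1.14 against 7.25% ± 0.386, SD, n = 3 per group) and above them for mt-Cytb (24.2% ± 1.87 against 27.3% ± 0.283). The exact permutation test gave p = 0.1 for each and 0.65 after adjustment over the 13 shares, so neither passed. The shares of the other 11 mRNAs overlapped between the groups. Summed by complex, the 7 complex I genes held 24.999%, 18.97% and 21.7% of the pool in Con and 18.7%, 17.6% and 17.3% in DRB. The 3 complex IV genes held 14.4%, 10.5% and 11.1% against 10.4%, 11.8% and 12.1%, and both ATP synthase genes together held 38.4%, 45.9% and 41.3% against 43.4%, 43.6% and 43.3%.

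**Figure D3:**
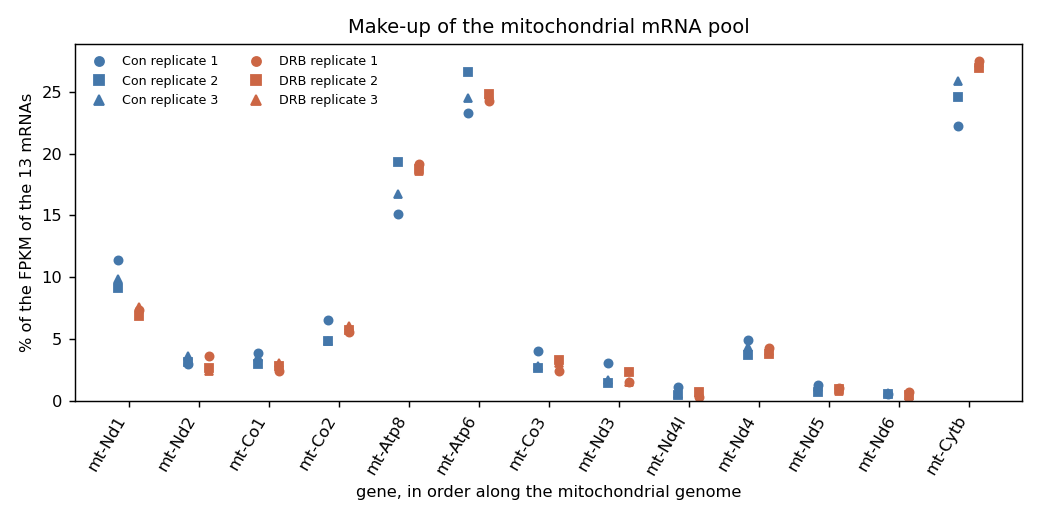
Percent of the summed FPKM of the 13 mRNAs held by each gene, in order along the genome, with Con in blue and DRB in red and a symbol for each replicate. The DRB points of mt-Nd1 (6.82% to 7.57%) lie below its Con points (9.10% to 11.3%), those of mt-Cytb (27.0% to 27.5%) lie above its Con points (22.2% to 25.9%), and the other 11 genes overlap.

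Neither rRNA passed the test. The FPKM of mt-Rnr1 (12S rRNA, chrM:70-1024, +), the RNA of the small ribosomal subunit, was 3018, 2054 and 5920 in Con and 8997, 8335 and 5370 in DRB. DRB replicates 1 and 2 were above all Con libraries while DRB replicate 3 was below Con replicate 3, and the log2 fold change of 1.15 ± 0.39 (SE) was the largest of the 15 mRNA and rRNA genes (limma p 0.0124, adjusted p 0.144, and 0.0717 to 0.516 over 17 other settings). The FPKM of mt-Rnr2 (16S rRNA, chrM:1094-2675, +), the RNA of the large subunit, was 8762, 9774 and 14133 in Con and 13811, 12987 and 12289 in DRB. Con replicate 3 was the highest of the 6, and the log2 fold change was 0.29 ± 0.28 (SE, limma adjusted p 0.655). The level of mt-Rnr2 was 2.90, 4.76 and 2.39 times that of mt-Rnr1 in Con and 1.54, 1.56 and 2.29 times in DRB, ranges that did not overlap and were compared after their values were seen, without a test. An oligo-dT primer copies rRNA only from A-rich stretches or tails, so these values are not the amount of ribosomal RNA.

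The tRNA values followed the length of the gene. Of the 132 tRNA values (22 genes in 6 libraries) 36 were above 0. The shortest gene of any kind with a value above 0 had 74, 71 and 71 bases in the Con libraries and 69, 70 and 69 bases in the DRB libraries. Every gene shorter than that was listed at 0, which covers 688 to 938 genes per library, nearly all nuclear. The tRNAs above 0 were exactly those of at least that length: 1, 4 and 4 in Con and 11, 5 and 11 in DRB. A tRNA listed at 0 in these files is therefore not shown to be absent, and the lower limit moved with the groups, since all 3 DRB libraries went down to shorter genes than any Con library.

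**Figure D4:**
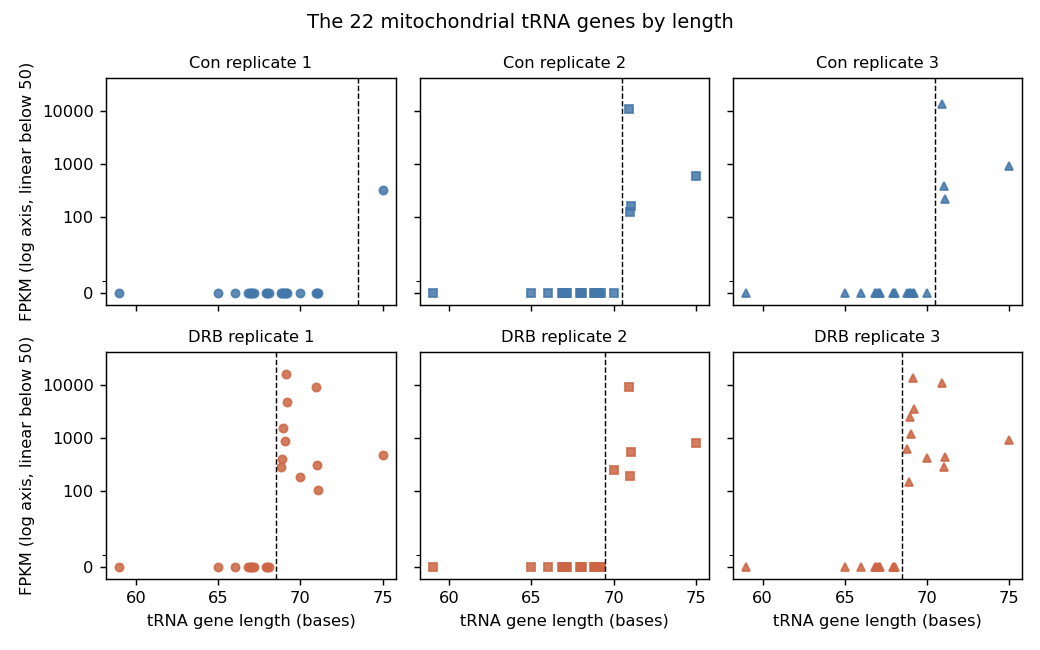
FPKM of the 22 tRNA genes against gene length in bases, 1 panel per library, on a log axis that is linear below 50 so that 0 can be drawn; points of equal length are set slightly apart. The dashed line marks the shortest gene of any kind with a value above 0 (74, 71 and 71 bases in Con, 69, 70 and 69 in DRB), and all tRNAs to its left are at 0.

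The longest tRNA, mt-Tl1 with 75 bases, was the single one above 0 in every library. Its FPKM was 325, 599 and 928 in Con and 478, 793 and 928 in DRB. The groups overlapped throughout (log2 fold change 0.32 ± 0.39 SE, limma adjusted p 0.731). Beside the summed mRNAs, its log2 ratio was −8.21 ± 0.53 in Con and −8.44 ± 0.29 in DRB (SD, n = 3 per group; exact permutation p = 0.6). The same ratio for all tRNAs together was −5.45 ± 2.77 and −3.41 ± 1.01 (exact permutation p = 0.3, adjusted 0.42). Its value was −8.64, −4.09 and −3.63 in Con and −2.64, −4.55 and −3.04 in DRB. Con replicate 1, with a value for 1 tRNA, was far below the others, and DRB replicate 2 lay below Con replicates 2 and 3. The difference of 2.04 was 0.45 without Con replicate 1, and for mt-Tl1 alone it had the opposite sign, at −0.24.

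The 3 tRNAs of 71 bases had a value in every library but Con replicate 1. For mt-Tq the FPKM was 0, 10699 and 13221 in Con and 9097, 9039 and 10880 in DRB, so that the DRB values were in the range of the Con values above 0 or below it. For mt-Tn, the asparagine tRNA (chrM:5089-5159, −), it was 0, 124 and 391 in Con and 314, 193 and 289 in DRB. For mt-Tl2, the second leucine tRNA (chrM:11671-11741, +), it was 0, 165 and 217 in Con and 105, 541 and 449 in DRB. All 3 overlapped between the groups, with limma adjusted p of 0.457, 0.389 and 0.327. These p-values take the listed 0 of Con replicate 1 as a measured value, although no gene of 71 bases had a value there.

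With 70 bases, mt-Td was listed at 0 in all 3 Con libraries and at 187, 249 and 414 FPKM in the DRB libraries. Of the 22 tRNAs 5 passed the filter on low values, and mt-Td was the single one that passed the test (limma adjusted p 2.56e-06, and 3.95e-07 to 0.00337 in the 12 other settings that tested it). It held its place in the filter only through the DRB libraries, and its length is below the shortest length with any value in each Con library and at or above it in each DRB library. No fold is given, since the Con values are at 0 for every gene of that length, nuclear genes included. When any 1 of DRB replicates 1, 2 or 3 was left out, it no longer passed the filter, and 0 tRNAs were called.

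The 6 tRNAs of 69 bases had values in DRB replicates 1 and 3 alone, the libraries whose lower limit was 69 bases. For mt-Ts1, the FPKM was 15625 in DRB replicate 1 and 13102 in DRB replicate 3, higher than any other tRNA there. For mt-Te, the glutamate tRNA (chrM:14071-14139, −), it was 4724 and 3462. For mt-Tm (methionine) it was 1575 and 2531, for mt-Ta (alanine) 888 and 1191, for mt-Tv (valine) 283 and 633, and for mt-Ti (isoleucine) 404 and 149. All 6 were listed at 0 in the Con libraries and in DRB replicate 2. The other 11 tRNAs (mt-Tf, mt-Tw, mt-Tc, mt-Ty, mt-Tk, mt-Tg, mt-Tr, mt-Th, mt-Ts2, mt-Tt and mt-Tp), of 59 to 68 bases, were at 0 in all 6 libraries.

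By mean FPKM mt-Tq, mt-Ts1 and mt-Te led the tRNAs, and together they held 80.7% to 92.3% of the tRNA FPKM in the 5 libraries other than Con replicate 1, where they were listed at 0. All 3 lie on the − strand, opposite to the transcript that carries most mRNAs, and mt-Ts1 overlaps the end of mt-Co1 by 3 bases. With no strand kept, their values cannot be told apart from those of RNA that runs through them on the + strand. With genes under 75 bases left out of the total, the tRNAs, then mt-Tl1 alone, held 0.055% ± 0.029 in Con and 0.064% ± 0.014 in DRB. The share of all mitochondrial genes was then 16.4% ± 3.62 and 23.7% ± 0.634, still without overlap (exact permutation p = 0.1).

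A further limit on the mRNA values comes from nuclear DNA. Stretches of mitochondrial DNA have been copied into the nuclear genome in the past, and where a copy is nearly identical its reads and those of the mitochondrial gene cannot be separated by sequence. A search of the annotated transcripts found 11 nuclear genes with at least 95% identity to the mitochondrial genome over at least 80% of their length. Of these, 7 lie in 1 block on the − strand of chromosome 1, at chr1:24611535-24616197 (mm10, 4663 bases), in the same order as in the mitochondrial genome, and each has at least 99% identity. They are Gm29216 (a copy of the last part of mt-Co1), Gm28661 (mt-Co2), Gm10925 (mt-Atp6), Gm28437 (mt-Co3), Gm28438 (mt-Nd3), Gm10222 (mt-Nd4l) and Gm28439 (the first part of mt-Nd4), all annotated as unprocessed pseudogenes. In 5 of them the matched bases are the same as in the mitochondrial gene. Gm28438 differs from mt-Nd3 by 1 base (T3C, counted from the first base of mt-Nd3), and Gm29216 differs from mt-Co1 by 1 (A1066T, counted from the first base of mt-Co1). The first 40 bases of mt-Nd3 (chrM:9459-9498, +) and of Gm28438 (chr1:24613080-24613119, −) are shown to make the single differing base visible, in capitals.
mt-Nd3: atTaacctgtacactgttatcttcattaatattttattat
Gm28438: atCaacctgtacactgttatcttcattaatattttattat

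Large FPKM were listed for the copies, and whether the reads came from the copies or from the mitochondrial genes was not tested. Together the 7 held 3.54%, 4.52% and 5.20% of the total FPKM in Con and 6.60%, 6.36% and 6.30% in DRB. The DRB libraries were above all Con libraries, as for the mitochondrial mRNAs themselves (4.42% ± 0.830 against 6.42% ± 0.156, SD, n = 3 per group; exact permutation p = 0.1). The FPKM of Gm10925 was 12421, 25625 and 26559 in Con and 37191, 34387 and 35094 in DRB (log2 fold change 0.80, limma adjusted p 0.2499). That of Gm10222, 7034, 4268 and 4892 in Con and 3997, 10499 and 10002 in DRB, had the same order over the libraries as mt-Nd4l, with DRB replicate 1 lowest and DRB replicate 2 highest. None of the 10 nuclear copies tested was called by limma, where 2.48% of all genes tested were. At an unadjusted limma p below 0.05 stood 4 of the 10, all higher in DRB, against 18.1% of all genes (7.53% higher). The 7 copies on chromosome 1 may share reads with the mitochondrial genes and are not independent of them.

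When the value of each copy was added to its mitochondrial gene, weighted by length, the part held by the copy differed widely between genes. It was 84.7% for mt-Nd4l, 58.2% for mt-Nd3, 46.2% for mt-Co3, 42.7% for mt-Co2, 35.5% for mt-Atp6, 27.4% for mt-Co1 and 0.56% for mt-Nd4. Comparisons that involve these mRNAs move accordingly. With the copies added, the level of mt-Atp8 was 0.459, 0.487 and 0.430 of that of mt-Atp6 in Con. In DRB it was 0.457, 0.489 and 0.499, which overlapped with Con, unlike the ratio as deposited. The level of mt-Nd4l was 0.219, 0.112 and 0.129 of that of mt-Nd4 in Con and 0.066, 0.191 and 0.147 in DRB as deposited, and 1.31, 0.696 and 0.739 in Con and 0.510, 1.27 and 1.02 in DRB with the copies added. Its rank among the 13 moved from 12 or 13 to between 7 and 11. The top of the order moved too, and mt-Atp6 with its copy lay above mt-Cytb in every library. The means were 63933 FPKM in Con and 96338 in DRB for mt-Atp6, and 41541 and 67457 for mt-Cytb. With its copy mt-Co2 had means of 15576 in Con and 25039 in DRB, beside 16891 and 17954 for mt-Nd1.

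The comparison of DRB with Con was also repeated with the copies added. There the median log2 fold change of the 13 mRNAs was 0.45, as before, and 0 were called by limma. The log2 fold change of mt-Nd4l went from 0.21 to 0.46 (limma adjusted p 0.851 and 0.597), and that of mt-Atp6 from 0.54 to 0.64 (0.413 and 0.357). The difference in the share of mt-Atp6 among the 13 changed sign, from −0.22 to 1.30 percentage points (exact permutation p = 0.9 and 0.8). The mRNA share became 18.95% ± 3.91 in Con and 27.3% ± 0.897 in DRB (exact permutation p = 0.1). The share of mt-Nd1 among the 13 was then 7.96% ± 0.769 and 5.67% ± 0.344, and that of mt-Cytb 19.1% ± 1.63 and 21.3% ± 0.340, each without overlap (exact permutation p = 0.1). That of mt-Co1, which overlapped as deposited, was 3.78% ± 0.357 and 2.94% ± 0.235 and no longer overlapped (exact permutation p = 0.1). Neither mt-Cytb nor mt-Nd1 has a copy among the 7. The 4 other copies, Gm13341, Gm13340 and Gm13339 on chromosome 2 and Gm4076 on chromosome 13, are less alike and had means of 0.752 to 20.9 FPKM.

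**Figure D5:**
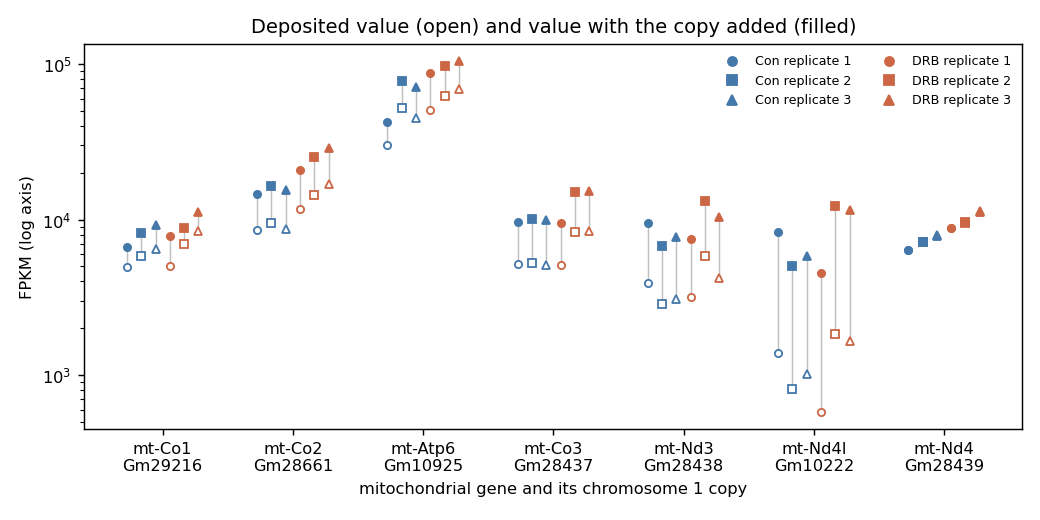
FPKM (log axis) of the 7 mitochondrial mRNA genes with a near-identical copy on chromosome 1, as deposited (open) and with the copy's value added (filled), for each library. The gap is widest for mt-Nd4l, where the copy Gm10222 holds 84.7% of the sum, and not visible for mt-Nd4, where Gm28439 holds 0.56%.

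The nuclear genes that transcribe, copy and process the mitochondrial genome were counted from 5 lists with 79 members. Of these 70 were tested and 0 were called by limma, and 15 (21.4%, against 18.1% of all genes) stood at an unadjusted p below 0.05, 6 of them higher and 9 lower in DRB. The lowest adjusted p was 0.0844, and the median log2 fold change was −0.17 beside −0.09 over all genes. By list the median was −0.08 for 8 of 10 transcription factors tested, 0.10 for 10 of 11 DNA replication genes, −0.20 for 20 of 21 RNA processing and stability genes, −0.04 for 14 of 15 tRNA and rRNA modification genes and −0.21 for 18 of 22 tRNA synthetase genes.

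None of the genes for the core transcription machinery passed. Polrmt, the polymerase, had 71.5, 111.3 and 98.3 FPKM in Con and 125.8, 48.0 and 52.9 in DRB. DRB replicate 1 was the highest of the 6 and the other DRB libraries were the lowest (log2 fold change −0.42 ± 0.38 SE, limma adjusted p 0.617). Tfam, which bends and packages the DNA at the promoters, had 15.0, 21.8 and 18.3 FPKM in Con and 36.0, 18.5 and 28.5 in DRB (0.53 ± 0.35 SE, limma adjusted p 0.468). Tfb2m, which helps the polymerase to open the promoter, had 94.6, 96.6 and 92.3 FPKM in Con and 184.3, 127.9 and 133.0 in DRB. These did not overlap, with a log2 fold change of 0.63 ± 0.26 (SE, limma p 0.0354, adjusted p 0.236). Tefm, the elongation factor, had 147.9, 227.6 and 92.8 FPKM in Con and 107.2, 182.5 and 103.3 in DRB (−0.21 ± 0.36 SE, limma adjusted p 0.828).

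None of the 2 most abundant members of each other list passed the test. In the replication list these were Ssbp1, the single-stranded DNA binding protein (223 ± 41.5 FPKM in Con against 200.4 ± 64.8 in DRB, SD over 3 libraries), and Rnaseh1, which removes RNA from DNA hybrids (13.3 ± 1.76 and 15.9 ± 7.63). In the processing and stability list they were Slirp, a partner of LRPPRC in keeping mitochondrial mRNAs stable (209 ± 83.4 and 167 ± 12.8), and Grsf1, an RNA granule protein (139 ± 30.5 and 148 ± 33.9). In the modification list they were Trmt61b, an RNA methyltransferase (127 ± 14.9 and 168 ± 45.3), and Trnt1, which adds the CCA end to tRNAs (110.3 ± 13.2 and 132 ± 12.4). In the synthetase list they were Kars (93.97 ± 4.27 and 58.5 ± 16.5) and Gars (32.4 ± 2.51 and 22.02 ± 6.53), which charge lysine and glycine tRNAs in the cytosol as well. In Kars and Gars every DRB library was below every Con library, as in 1654 of all 11893 genes tested (23.8% did not overlap in either direction). The other 6 genes overlapped between the groups. For Kars limma gave −0.71 ± 0.29 on the log2 scale (SE, p 0.0307, adjusted p 0.221). The limma adjusted p of these 8 genes ran from 0.221 for Kars to 0.917 for Grsf1. Mgme1, a nuclease that trims mitochondrial DNA during replication, had the lowest adjusted p of the 70 and was picked out after its values were seen. Its FPKM was 15.1, 13.4 and 10.1 in Con and 5.37, 3.54 and 3.94 in DRB, without overlap (log2 fold change −1.39 ± 0.38 SE, limma adjusted p 0.0844).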

How the data were processed

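RNA from mouse 4-cell embryos was measured in 3 Con and 3 DRB libraries. Libraries were oligo-dT Smart-Seq2 with paired-end Illumina reads, per the labels' protocols. The submitters' processing notes name cutadapt 1.16, STAR and mm10. Per the file headers the authors deposited FPKM for each gene. The program and the annotation behind it were not given in the sources used here. FPKM divides by a transcript length and by the library total, so very short genes are sensitive to how that length was set.

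GENCODE M21 (GRCm38) held 55154 of the gene IDs and not the other 181. The members, the lists and the tests were chosen with earlier results of these data known. Genes with at least 1 FPKM in at least 3 libraries were fitted on log2(FPKM + 1), pseudocount 1, with limma 3.58.1 in R 4.3.3 (mean-variance trend, group as the single term, two-sided, Benjamini-Hochberg over 11893 genes, threshold 0.05). A log2 fold change is DRB minus Con on that scale, which understates the change of low genes. Standard errors are limma's moderated ones. Shares and ratios of whole libraries were compared by exact two-sided permutation tests in Python 3.11.15 with scipy 1.17.1. Nothing in the labels says that replicates are separate cultures, and the p-values therefore speak only to the spread among these libraries, which may be technical.

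Depth was estimated from the steps of low FPKM values, of which 75.9% to 83.5% lay within 0.15 of a whole number of fragments at the best depth. The estimate used the annotated length less 160 to 180 bases. Counts were not rebuilt for all genes, and no count test was run. Nuclear copies were sought with blastn 2.17.0 among GENCODE transcripts. The fit, the depth estimate and the permutation test were tested on simulated data.

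All 37 mitochondrial genes are accounted for. Named with values are the 13 mRNAs, the 2 rRNAs, tRNAs that passed the test, the 3 with the highest mean or those at 0 in a whole group, up to 3 called genes per direction or else the 2 most abundant of each nuclear list, and Polrmt, Tfam, Tfb2m and Tefm. The 5 lists were those named in the text. Alternatives were a pseudocount of 0.1, no filter, a minimum of 5 FPKM, the replicate number as a block, other scalings, leaving out genes under 200 bases, and leaving out each library. Added after seeing the data were removal of a GC trend (lowess span 0.3), leaving out genes under 75 bases, mt-Tl1 as the single tRNA, and adding the chromosome 1 copies.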

Additional observations from a re-analysis of the deposited data

How the results depend on the processing

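In 17 other settings of the gene fit limma called 0 of the 13 mRNAs and 0 of the 2 rRNAs, and the median log2 fold change of the mRNAs stayed above 0. It was 0.20 with a GC trend removed, a setting chosen after seeing the data, and ran from 0.39 to 0.61 when each library was left out in turn. The cause of the lower value was not tested. The single tRNA call became 0 without genes under 75 bases, which leaves out mt-Td itself, and ran from 0 to 1 when each library was left out. The replication list ran from 0 to 1 called, with 1 without Con replicate 1. Left-out libraries gave a difference of −0.26 to 0.19 in the log2 ratio of rRNAs to mRNAs and of −0.39 to 0.050 in that of mt-Nd6 to the other 12, so both changed sign, and mt-Tl1 alone gave −0.24 in place of 2.04 for all tRNAs. The log2 fold change of mt-Nd1 was −0.13 with the GC trend removed and from −0.0445 to 0.19 with left-out libraries. With left-out libraries mt-Nd4l ran from −0.091 to 0.74 and mt-Tl1 from −0.079 to 0.68. For mt-Tq it ran from −0.30 without Con replicate 1 to 6.54. The latter size rests on the listed 0 of Con replicate 1, where no gene of 71 bases had a value. The difference in the share of mt-Atp6 among the 13 was 1.30 percentage points with the copies added. With left-out libraries the differences in percentage points ran from −0.97 to 0.69 for mt-Atp6, from −0.48 to 0.19 for mt-Co3, from −0.58 to 0.21 for mt-Nd3, from −0.28 to 0.047 for mt-Nd4l, from −0.60 to 0.02 for mt-Nd4 and from −0.12 to 0.041 for mt-Nd6.

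Over all genes 295 were called, against 164 with a pseudocount of 0.1, 6 with no filter, 171 with the replicate number as a block and 47 to 220 with a library left out. The 8 other settings gave 259 to 390. Common-total scaling over nuclear genes, the chromosome 1 copies among them, moved the split from 182 higher and 113 lower to 187 and 72. Median-of-ratios scaling moved it to 223 and 84. In the same order, the median of all genes moved from −0.09 to 0.02 and −0.0034, and that of the 13 mRNAs from 0.45 to 0.59 and 0.56. Same-numbered libraries did not deviate together from their group means over the genes tested (r of −0.0468, 0.053 and −0.0512). These r do not show whether such libraries share a collection or batch. With the block 0 mRNAs, 0 rRNAs and 1 tRNA were called. That tRNA was mt-Td, listed at 0 in each Con library like every other gene of its length. The tRNA count could not be had without genes under 200 bases, since none is that long.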
